A study of Mus musculus with 14 samples.

Results

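Reactive glia are astrocytes and microglia that have changed their gene expression after injury, inflammation or disease. The 9 genes described here mark such cells or belong to the complement system in brain: Serpina3n, C4b, Vim, Osmr, Cd44, Stat3, Apoe, Clu and Cst3. They were chosen by symbol, with earlier results of these data known. All 9 have a row among the 24444 genes of each deposited table. Of these genes, 7 passed the filter on low values in each table, while Osmr and Cd44 did not.

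The 9 genes were measured by RNA-seq of polyadenylated RNA in 14 samples of mouse cortex. The mice were from 2 models of miR-29, a microRNA family that lowers transcripts carrying a match to its seed. Each n counts samples, as the labels do not say whether each came from its own mouse. The miR29Nestin mice (n = 3, P40) carry floxed alleles of both loci of the family, miR-29ab1 and miR-29b2c, which Nestin-Cre deletes. That driver is active in neural progenitors, so the neurons, astrocytes and oligodendrocytes derived from them are affected, while microglia have another origin. They were compared with miR29WT mice (n = 3, P40), whose alleles the labels do not spell out further. The Dnmt3a-mi5 mice (n = 4, 4.5 months) keep miR-29 but carry a CRISPR knock-in that mutates all 5 of its sites in the 3′ UTR of Dnmt3a, a DNA methyltransferase, and this allele is not limited to a cell type. They were compared with Dnmt3a-WT mice (n = 4, 4.5 months). The models also differ in age, RNA kit and library kit, and their tables were normalised separately, so a difference between the models was not tested.

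Astrocytes answer cytokines of the IL-6 family through receptors such as OSMR, which signal by way of JAK kinases to the transcription factor STAT3. Its targets in reactive astrocytes include the intermediate filaments and the serine protease inhibitor Serpina3n. Complement C4 is cut during the classical pathway and tags surfaces for removal, and clusterin (Clu) restrains the terminal complex. Apolipoprotein E, clusterin and cystatin C (Cst3) are secreted in large amounts by healthy astrocytes too, so in cortex they report on astrocytes in general as well as on reactive ones.

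The sequence that links the deleted microRNAs to their targets is shown first, because 1 of the 9 genes carries a match to it. The mature sequences are from RefSeq (GRCm38.p6), with the seed, bases 2 to 8, in capitals. The 3 miRNAs share that seed.
miR-29a-3p: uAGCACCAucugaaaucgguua
miR-29b-3p: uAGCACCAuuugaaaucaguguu
miR-29c-3p: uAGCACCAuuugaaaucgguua
The matching 7 bases, TGGTGCT, were searched on the sense strand of the longest annotated 3′ UTR of each gene (GENCODE M21, GRCm38). Only Cd44 among the 9 genes held one, at position 1248 of its 2992 bases (chr2:102812879-102812885, minus strand), shown in capitals within its surroundings.
Cd44 site: gctgtgtttgtTGGTGCTttcacaagcgag
For comparison, 16.6% of the 11554 tested genes with an annotated 3′ UTR held such a match, and Dnmt3a held 5. The median 3′ UTR of those tested genes was 1324 bases long. The 3′ UTRs of the other 8 genes ran from 106 bases in C4b to 3701 bases in Stat3 and held no such match. A shorter UTR has less room for a match, and other forms of seed match were not searched. A match is a description of the sequence and not a tested binding site.

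A pair of the genes have near copies in the genome, which bears on how reads were assigned to them. C4b (chr17:34728380-34743882, minus strand, 41 exons) lies near C4a on the same chromosome, and its coding bases were 96.1% identical to the aligned C4a transcript. The most divergent 30-base window of the alignment, with differing bases in capitals, is where reads can best tell the copies apart.
C4b: aGGtggtggctCGagggGTtttTgattTaG
C4a: aATtggtggctAAagggACtttGgattCaA
Of the 5330 windows of 50 bases in the C4b transcript, 35.2% also occur in C4a. C4a itself had low values, at 19.4 ± 5.32 normalised counts in miR29Nestin, 24.4 ± 3.14 in miR29WT (SD, n = 3 each), 11.7 ± 3.39 in Dnmt3a-mi5 and 12.9 ± 6.30 in Dnmt3a-WT (SD, n = 4 each). Values of C4b are therefore uncertain by whatever part of the shared reads was assigned to it. Serpina3n (chr12:104406729-104414329, plus strand, 5 exons) belongs to a cluster of related serpins. Of those with an annotated coding transcript, which left out Serpina3h, Serpina3c had the highest identity over the coding bases, at 86.0%.
Serpina3n: gcacGttGgGaaTGgaTGctGCaGtccaAG
Serpina3c: gcacAttAgAaaGAgaCActTTaTtccaTA
Only 6.9% of the 2015 windows of Serpina3n occur in another gene, with 2.7% in Serpina3e-ps, 2.5% in Serpina3g and 1.2% in Serpina3c. The other cluster genes in the tables, Serpina3a to Serpina3m, had group means of at most 7.58 normalised counts, the highest being Serpina3h in miR29Nestin against 0.433 in miR29WT. Serpina3a, Serpina3b, Serpina3j and Serpina3k were at 0 in every library. None of the windows of the other 7 genes occurred in a second gene.

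The labels were checked with Dnmt3a, which is a miR-29 target and the gene edited in the second model. Its mean in normalised counts was 1662 ± 59.2 for miR29WT and 5529 ± 300 for miR29Nestin (SD, n = 3 each), and 1145 ± 84.6 for Dnmt3a-WT and 2080 ± 151 for Dnmt3a-mi5 (SD, n = 4 each). Both differences passed (limma adjusted p = 8.18e-08 and 0.00153). The miR29 libraries held 9.2 to 14.46 M reads in genes, and the depth of the Dnmt3a libraries is unknown. Over all genes, 19.1% of 12014 tested genes passed in miR29Nestin and 0.122% of 10670 in Dnmt3a-mi5. Markers of cortical neurons were high in all 14 libraries, and those of striatum and of ependyma and choroid plexus varied within groups, the latter from 255 to 13565 summed normalised counts among the Dnmt3a libraries. Sex, read from Y-linked genes, was mixed in both miR29 groups. Labels give each library as a separate replicate, without saying more of its animal or culture.

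In miR29Nestin cortex 5 of the 7 tested genes passed the test at an adjusted p under 0.05, against 19.1% of all tested genes. Because the genes were chosen with earlier results of these data known, these shares are not read as an enrichment. Serpina3n fell, and Apoe, Clu, Cst3 and C4b rose. The share of all tested genes that passed was 9.02% upward and 10.03% downward. The groups did not overlap for the same 5 genes, as they did not for 37.3% of all tested genes. The median log2 difference was 0.22 for the 7 genes and −0.005 for all tested genes. In Dnmt3a-mi5 cortex none of the 7 tested genes passed, against 0.122% of all tested genes, none had an unadjusted p under 0.05 in limma, and none had separate groups, against 12.01% of all tested genes. Their median log2 difference there was 0.02, and that of all tested genes was 0.002.

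**Figure D1:**
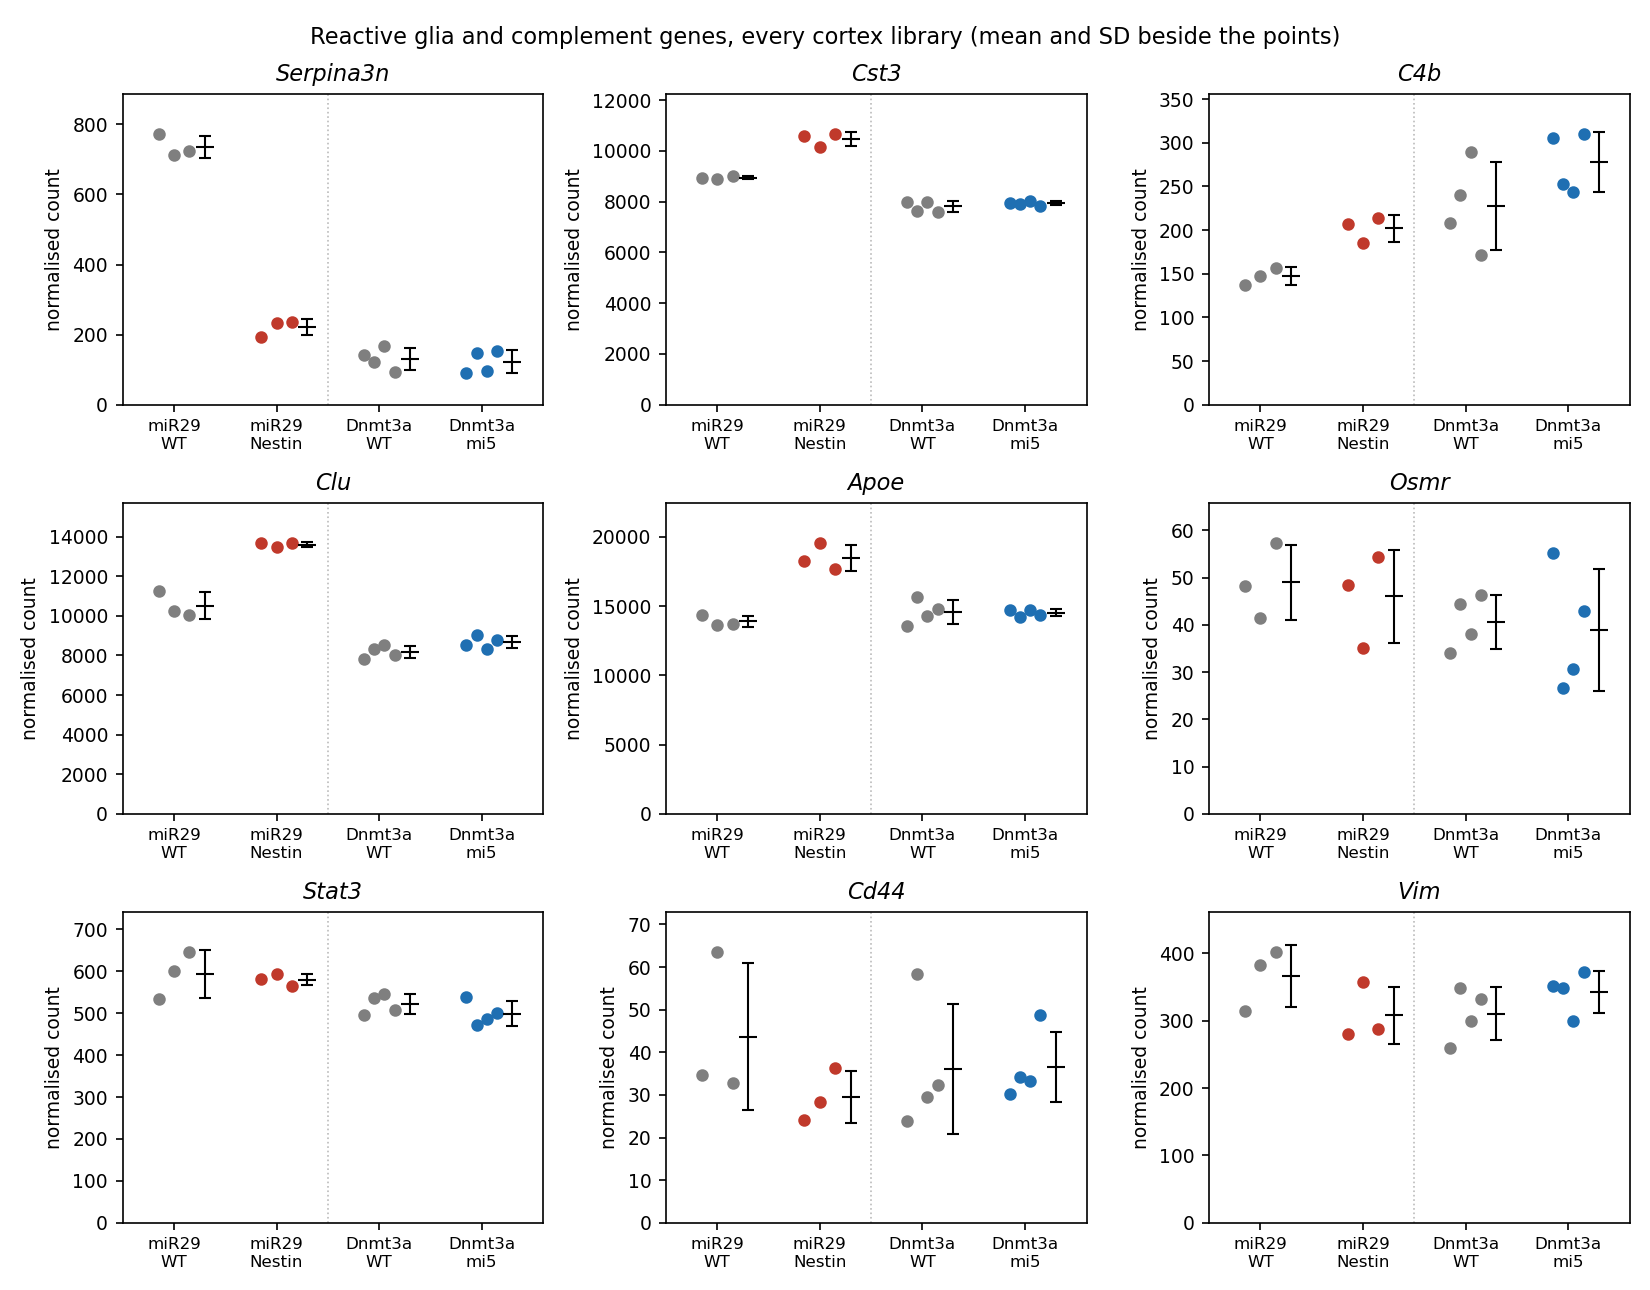
Normalised counts of the 9 genes (linear axes from 0) in every library of the 4 groups, with the mean and SD beside the points and a dotted line between the separately normalised tables. Serpina3n lies between 194 and 235 in the 3 miR29Nestin libraries and between 713 and 772 in the 3 miR29WT libraries, while every gene overlaps between Dnmt3a-mi5 and Dnmt3a-WT.

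Serpina3n, which encodes a secreted inhibitor of serine proteases, had 194, 234 and 235 normalised counts in miR29Nestin, while miR29WT had 772, 713 and 723. Every mutant library lay below every wild-type library, by far more than the spread within either group. The group means were 221 ± 23.9 and 736 ± 31.5 (SD, n = 3 each), 3.33-fold lower in the mutant. On the deposited log2 scale the difference was −1.24 (SE 0.07, 95% interval −1.38 to −1.09, limma adjusted p = 2.13e-06). On that scale, which compresses low values, only 2 of the 12014 tested genes had a more negative difference, and 0.117% had a larger absolute one. In the other model the gene had 91.7, 148, 96.0 and 153 normalised counts in Dnmt3a-mi5 and 143, 121, 168 and 92.9 in Dnmt3a-WT. These groups overlapped from end to end, with a log2 difference of −0.04 (SE 0.08, 95% interval −0.22 to 0.14, limma adjusted p = 0.877).

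C4b, the complement component cut in the classical pathway, went the other way from Serpina3n in the miR29 mice. It had 207, 185 and 214 normalised counts in miR29Nestin and 137, 148 and 157 in miR29WT. The groups were separate but closer together than those of Serpina3n. The means were 202 ± 15.4 and 147 ± 9.98 (SD, n = 3 each), a 1.37-fold rise with a log2 difference of 0.25 (SE 0.06, 95% interval 0.11 to 0.40, limma adjusted p = 0.0203). The call ended when miR29Nestin library 3 (limma adjusted p = 0.0566), miR29WT library 1 (0.0628) or miR29WT library 2 (0.062) was left out. The difference was 0.45 when taken as log2(normalised count + 1), because the deposited scale compresses low values. In Dnmt3a-mi5 C4b had 305, 253, 244 and 310 counts, set against 208, 240, 290 and 171 in Dnmt3a-WT. The mutant mean was higher, 278 ± 34.4 against 227 ± 50.4 (SD, n = 4 each), but the groups overlapped and the log2 difference of 0.15 did not pass (95% interval −0.01 to 0.31, limma adjusted p = 0.385).

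Clu (chr14:65968483-65981547, plus strand, 9 exons), whose product is both a chaperone and a complement inhibitor, had 13680, 13472 and 13674 normalised counts in miR29Nestin against 11283, 10242 and 10036 in miR29WT. The 3 mutant libraries were within a narrow band above all wild-type libraries. The means were 13609 ± 118 and 10520 ± 669 (SD, n = 3 each), a 1.29-fold rise (log2 difference 0.37, SE 0.05, 95% interval 0.26 to 0.48, limma adjusted p = 5.63e-04). In Dnmt3a-mi5 the libraries had 8543, 9017, 8345 and 8779 counts, and in Dnmt3a-WT 7824, 8305, 8524 and 8016. These groups overlapped by the lowest mutant and the highest wild-type library. The log2 difference of 0.08 did not pass (SE 0.04, 95% interval −0.01 to 0.18, limma adjusted p = 0.423).

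Apoe (chr7:19696109-19699188, minus strand, 4 exons) encodes the main lipid carrier made in brain. It had 18228, 19552 and 17714 normalised counts in miR29Nestin and 14328, 13633 and 13732 in miR29WT, again with separate groups. The means were 18498 ± 948 and 13898 ± 376 (SD, n = 3 each), a 1.33-fold rise (log2 difference 0.41, SE 0.05, 95% interval 0.30 to 0.51, limma adjusted p = 2.20e-04). On the deposited scale, which compresses the differences of genes with low values, larger absolute differences were found in 4.30% of all tested genes. In the second model Apoe had 14739, 14205, 14699 and 14386 counts in Dnmt3a-mi5 and 13581, 15690, 14273 and 14782 in Dnmt3a-WT. The mutant values lay inside the wild-type range, and the log2 difference was −0.01 (95% interval −0.12 to 0.11, limma adjusted p = 0.977).

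Cst3 (chr2:148871722-148875692, minus strand, 3 exons) encodes cystatin C, an inhibitor of lysosomal cysteine proteases. Its normalised counts were 10599, 10156 and 10658 in miR29Nestin and 8942, 8908 and 8997 in miR29WT. The rise was the smallest of those that passed, 1.17-fold between means of 10471 ± 274 and 8949 ± 45.0 (SD, n = 3 each), and exceeded the spread of both groups. The log2 difference was 0.22 (SE 0.04, 95% interval 0.13 to 0.31, limma adjusted p = 0.00376). In Dnmt3a-mi5 the gene had 7934, 7917, 8038 and 7839 counts and in Dnmt3a-WT 7997, 7634, 7999 and 7608. The values overlapped, with a log2 difference of 0.02 (95% interval −0.06 to 0.11, limma adjusted p = 0.844).

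Vim (chr2:13573927-13582826, plus strand, 9 exons), the intermediate filament protein vimentin of immature and reactive astrocytes and of vessel and meningeal cells, had 280, 357 and 288 normalised counts in miR29Nestin and 315, 383 and 402 in miR29WT. The groups overlapped. The log2 difference was −0.17 (SE 0.08, 95% interval −0.36 to 0.01, limma adjusted p = 0.188). In Dnmt3a-mi5 the libraries had 351, 349, 299 and 373 counts and in Dnmt3a-WT 260, 349, 299 and 333, and the log2 difference was 0.08 (95% interval −0.04 to 0.20, limma adjusted p = 0.546).

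Stat3 (chr11:100885098-100939540, minus strand, 24 exons), the transcription factor downstream of IL-6 family receptors, had 582, 593 and 566 normalised counts in miR29Nestin and 534, 602 and 646 in miR29WT. All 3 mutant values lay within the wild-type range. The log2 difference was −0.02 (SE 0.06, 95% interval −0.17 to 0.12, limma adjusted p = 0.839), and 86.6% of tested genes had a larger absolute difference. Dnmt3a-mi5 had 539, 471, 486 and 500 counts and Dnmt3a-WT 497, 536, 547 and 509, with a log2 difference of −0.04 (95% interval −0.13 to 0.04, limma adjusted p = 0.668).

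Osmr (chr15:6813577-6874969, minus strand, 18 exons), the receptor subunit for oncostatin M, had a mean under the filter in both tables. It had 48.5, 35.1 and 54.4 normalised counts in miR29Nestin against 48.3, 41.4 and 57.3 in miR29WT. It had 55.1, 26.6, 30.6 and 43.0 in Dnmt3a-mi5 against 34.0, 44.4, 38.0 and 46.3 in Dnmt3a-WT. The groups overlapped in both models. In a fit with no filter, the log2 differences were −0.03 (95% interval −0.20 to 0.13, limma adjusted p = 0.837) and −0.02 (−0.13 to 0.09, 0.914).

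Cd44 (chr2:102811141-102901665, minus strand, 19 exons), a cell surface receptor for hyaluronan, was also under the filter, although it alone holds the seed match shown above. It had 24.1, 28.3 and 36.2 normalised counts in miR29Nestin and 34.6, 63.5 and 32.9 in miR29WT, where library 2 stood above the rest. The groups overlapped, and in the fit with no filter the log2 difference was −0.16 (95% interval −0.35 to 0.03, limma adjusted p = 0.299). In Dnmt3a-mi5 it had 30.3, 34.3, 33.3 and 48.7 counts and in Dnmt3a-WT 23.8, 58.3, 29.5 and 32.4, with a log2 difference of 0.01 (95% interval −0.11 to 0.14, limma adjusted p = 0.96).

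**Figure D2:**
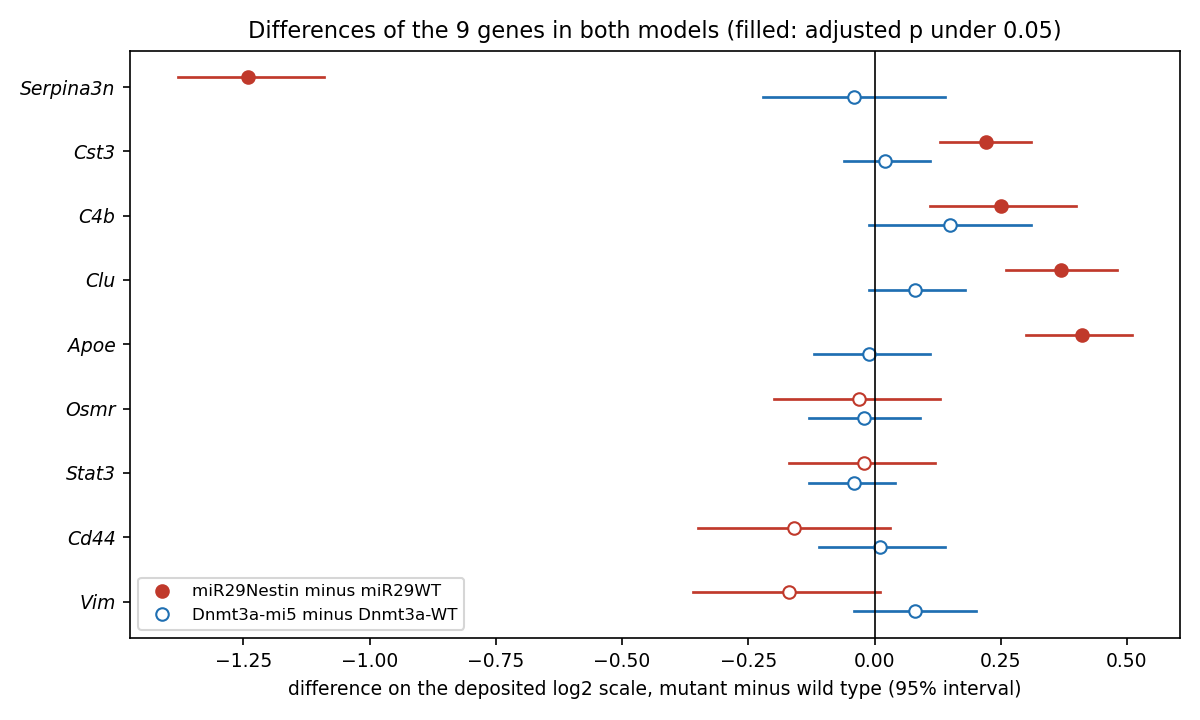
Difference of each of the 9 genes on the deposited log2 scale, mutant minus wild type, with its 95% interval, in miR29Nestin (red) and Dnmt3a-mi5 (blue). Filled points passed at an adjusted p under 0.05, and Osmr and Cd44 are from the fit with no filter. Serpina3n at −1.24 stands far to the left of the 4 genes that rose by 0.22 to 0.41, and every Dnmt3a-mi5 interval includes 0. The scale compresses low values. C4b therefore lies at 0.25, below Apoe and Clu, although its 1.37-fold rise exceeded theirs of 1.33-fold and 1.29-fold.

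As a check that uses no model across genes, an exact two-sided permutation test over libraries gave p = 0.1 for each of the 5 called genes in the miR29 mice, the smallest value that 3 against 3 libraries allow. Over the 36 assignments that keep the removed effect of the Dnmt3a table balanced, the exact permutation p ranged from 0.111 for Clu to 0.944 for Apoe and Cd44, where 0.0556 is the smallest possible.

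Levels per kilobase of the principal transcript order the genes within a group. In miR29WT cortex Cst3 was highest at 10406 ± 52.2 normalised counts per kilobase, followed by Apoe at 9871 ± 267 and Clu at 5812 ± 369 (SD, n = 3 each). These secreted proteins stood far above Serpina3n at 357 ± 15.3, Vim at 167 ± 20.9, Stat3 at 132 ± 12.5 and C4b at 27.4 ± 1.86 per kilobase. Osmr (8.92 ± 1.45) and Cd44 (7.78 ± 3.06) came last, and theirs were the only neighbouring levels whose libraries overlapped. In miR29Nestin the order changed at 2 places. Apoe, at 13138 ± 673 per kilobase, stood above Cst3 at 12176 ± 319, and Serpina3n, at 107 ± 11.3, stood below Vim and Stat3. The order of Apoe and Cst3, which lie close, depends on the transcript lengths used, 1408 and 860 bases. Serpina3n was also sixth in both Dnmt3a groups, at 63.6 ± 15.5 per kilobase in Dnmt3a-WT and 59.2 ± 15.9 in Dnmt3a-mi5 (SD, n = 4 each). There its range overlapped with that of C4b, at 42.2 ± 9.38 and 51.7 ± 6.38. Because the tables were normalised separately, these levels do not compare the wild-type groups with each other.

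Genes known to go with the 9 were described from lists by role. Beside each count below stand the shares of all tested miR29 genes, of which 9.02% rose and 10.03% fell, and their median log2 difference of −0.005. With so few tested genes a list, nothing particular to a list is read from these counts. Among 13 pan-reactive astrocyte genes, 5 were tested in miR29Nestin, of which Gfap and Cp rose and Serpina3n fell (median log2 difference 0.16). Gfap, the filament protein of astrocytes, had 3157, 2763 and 2845 normalised counts in miR29Nestin and 1859, 2049 and 1941 in miR29WT. All mutant libraries were above all wild types, with means of 2922 ± 208 and 1950 ± 95.3 (SD, n = 3 each) and a 1.5-fold rise (log2 difference 0.54, SE 0.06, limma adjusted p = 1.98e-04). Gfap and Serpina3n, members of the same list, thus passed in opposite directions in the same libraries. Cp, the copper-binding ferroxidase, rose 1.47-fold from 143 ± 35.7 to 210 ± 21.9 (SD, n = 3 each, limma adjusted p = 0.0388), but the call ended without miR29Nestin library 2 or 3 or miR29WT library 1 or 3 (limma adjusted p = 0.0715 to 0.123) and with sex as a term (0.0535). In Dnmt3a-mi5 none of 5 tested genes passed, and Gfap stood at 1901 ± 377 against 1822 ± 418 (SD, n = 4 each, limma adjusted p = 0.901).

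Of 12 genes often used to mark the A1 type of reactive astrocyte, 7 were tested and 3 rose in miR29Nestin, with a median log2 difference of 0.10. Amigo2, a neuronal and glial adhesion protein, rose 2.11-fold from 115 ± 8.02 to 242 ± 31.6 normalised counts (n = 3 each, with SD, limma adjusted p = 3.89e-04). H2-D1, a class I histocompatibility gene, rose 1.39-fold from 347 ± 12.5 to 483 ± 62.1 (limma adjusted p = 0.00897). Fkbp5, a chaperone that is also induced by glucocorticoids, rose 1.74-fold from 468 ± 204 to 816 ± 193 (limma adjusted p = 0.0352). That call ended without any 1 of miR29Nestin libraries 2 and 3 and miR29WT libraries 1 and 2 (limma adjusted p = 0.0688 to 0.119), with sex as a term (0.051) and with a robust variance prior (0.195). Of 12 A2-type genes only 3 were tested, and S100a10, an annexin partner, fell 2.45-fold from 177 ± 40.4 to 72.2 ± 18.1 (SD, n = 3 each, limma adjusted p = 0.00191). None of either list passed in Dnmt3a-mi5.

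Of 40 complement components, receptors and regulators, 17 were tested in miR29Nestin. C4b and Clu rose, and Csmd2, a membrane protein with complement control domains, fell 1.35-fold from 1011 ± 57.8 to 750 ± 81.2 normalised counts (n = 3 each, with SD, limma adjusted p = 0.00573). The median log2 difference was 0.08. The C1q chains that start the classical pathway, made in brain by microglia, did not pass: C1qa had 398 ± 47.6 against 365 ± 26.2 (limma adjusted p = 0.46), C1qb 498 ± 24.8 against 458 ± 21.4 (0.314) and C1qc 487 ± 31.5 against 444 ± 29.8 (0.313). C3, the component that C4 acts on next, was under the filter at 13.9 ± 1.65 against 5.78 ± 2.97 normalised counts. C1rb, C6, C9, Cfd and Cfi were at 0 in every miR29 library. In Dnmt3a-mi5 none of 12 tested genes passed (median 0.01).

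Of 33 genes of the IL-6 family, its receptors and JAK-STAT3 signalling, 17 were tested in miR29Nestin, with 1 rise, 1 fall and a median log2 difference of 0.06. Socs2, an inhibitor of cytokine receptors, rose 1.34-fold from 149 ± 14.9 to 199 ± 12.0 normalised counts (n = 3 each, with SD, limma adjusted p = 0.0313). Jak1, a kinase of this receptor family, fell 1.2-fold from 1997 ± 68.5 to 1662 ± 125 (limma adjusted p = 0.0166). The call of Socs2 ended without any 1 library other than miR29WT library 2 (limma adjusted p = 0.055 to 0.109) and with sex as a term (0.0528), and that of Jak1 without miR29WT library 2 or 3 (0.0637 and 0.071). The shared receptor chain Il6st had 895 ± 41.7 against 912 ± 31.6 (limma adjusted p = 0.821). Socs3, a direct Stat3 target, was under the filter. None of 16 tested genes passed in Dnmt3a-mi5.

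Among the serpins, genes passed in both directions. Of 21 serpins 9 were tested in miR29Nestin, and Serpina3n was the only one that fell, while 3 rose (median log2 difference 0.20). Serpinh1, the collagen chaperone HSP47, rose 1.84-fold from 143 ± 29.6 to 263 ± 36.6 normalised counts (n = 3 each, with SD, limma adjusted p = 0.00331). Serpini1, the neuronal inhibitor neuroserpin, rose 1.26-fold from 3380 ± 206 to 4267 ± 363 (limma adjusted p = 0.00747). Serpine2, a thrombin and plasmin inhibitor of glia, rose 1.23-fold from 1909 ± 42.1 to 2346 ± 96.9 (limma adjusted p = 0.00381). None of 8 tested serpins passed in Dnmt3a-mi5.

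Cystatins inhibit cysteine cathepsins, and the list also holds lysosomal proteases of other classes, such as the aspartic protease Ctsd. Of 16 genes 15 were tested in miR29Nestin, and Cst3 and 4 cathepsins rose (median log2 difference 0.13). Ctsf, a lysosomal cysteine protease, had 1098, 1017 and 1058 normalised counts against 701, 605 and 720, a 1.57-fold rise (log2 difference 0.54, SE 0.06, limma adjusted p = 3.05e-04). Ctso rose 1.22-fold (limma adjusted p = 0.0332), Ctsd 1.13-fold (0.0381) and Ctsk 1.82-fold (0.0493). The calls of these 3 were not stable. Ctso lost its call without miR29Nestin library 2 or 3 or miR29WT library 2 or 3 (0.0809 to 0.119), Ctsd without any 1 library other than miR29Nestin library 3 (0.0709 to 0.118) and with no variance trend (0.0737), and Ctsk without any 1 library other than miR29Nestin library 2 (0.0502 to 0.149). Ctsk also lost it on both other scales, with quantile normalisation and with sex as a term (0.0539 to 0.0597). Ctsb, another lysosomal protease, had 9221 ± 469 against 8616 ± 159 and did not pass (SD, n = 3 each, limma adjusted p = 0.189). None of 13 tested genes passed in Dnmt3a-mi5.

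Among lipid carriers and their receptors, genes passed in both directions. Of 17 apolipoproteins, lipid transporters and receptors, 14 were tested in miR29Nestin, of which 3 rose and 3 fell (median log2 difference 0.10). The rises were Apoe, Clu and Abcg1, a cholesterol exporter that loads lipid onto apolipoprotein particles, which went from 1118 ± 68.6 to 1342 ± 97.0 normalised counts (n = 3 each, with SD, limma adjusted p = 0.0297). The falls included Vldlr and Lrp8, receptors that bind apolipoprotein E and reelin. Vldlr fell 1.47-fold from 1187 ± 33.2 to 808 ± 68.2 (limma adjusted p = 5.11e-04), and Lrp8 1.28-fold from 1338 ± 122 to 1043 ± 53.3 (0.00931). The call of Abcg1 ended without miR29Nestin library 1 or 3 or miR29WT library 2 or 3 (limma adjusted p = 0.0529 to 0.124). None of 13 tested genes passed in Dnmt3a-mi5.

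Filament genes other than Gfap did not pass. Of 6 intermediate filament genes of glia and progenitors, 5 were tested, and the median log2 difference was −0.17. Nes, the progenitor filament nestin, had 132 ± 2.68 normalised counts in miR29Nestin and 178 ± 32.9 in miR29WT (SD, n = 3 each, limma adjusted p = 0.0675). Among 15 genes of CD44, hyaluronan and its linkers in the tables, 11 were tested and 3 rose (median log2 difference 0.03). Spp1, osteopontin, a ligand of CD44, had 238, 235 and 337 counts in miR29Nestin and 50.7, 99.7 and 78.9 in miR29WT. The groups were well apart, with means of 270 ± 57.7 and 76.4 ± 24.6, a 3.53-fold rise (log2 difference 0.95, SE 0.11, limma adjusted p = 2.51e-04). Cemip, a hyaluronan-degrading protein, rose 1.62-fold from 290 ± 7.84 to 469 ± 80.0 (limma adjusted p = 0.00326). Has3, a hyaluronan synthase, rose 1.65-fold from 56.6 ± 8.44 to 93.2 ± 5.75 (0.0135, and 0.054 without miR29Nestin library 2). None of these genes passed in Dnmt3a-mi5.

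**Figure D3:**
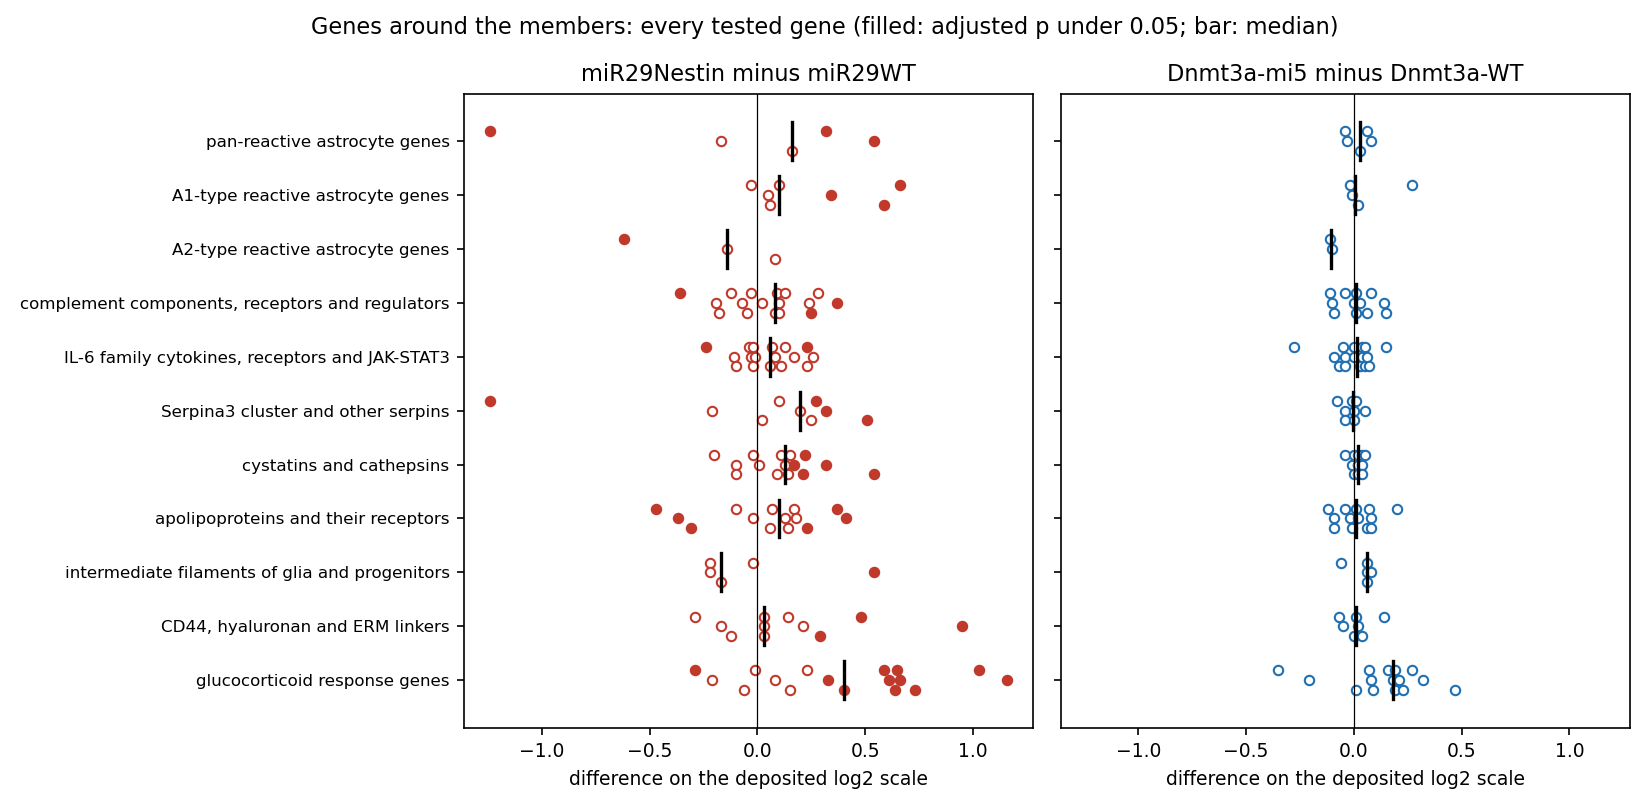
Every tested gene of the lists by role, placed by its difference on the deposited log2 scale (mutant minus wild type) in miR29Nestin (left) and Dnmt3a-mi5 (right), with the list median as a bar and genes that passed filled. On the left every list holds genes that passed, with Serpina3n at −1.24 apart from its lists, and on the right no gene passed.

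Bulk RNA cannot tell a change in the number of cells of a type from a change in RNA per cell, so marker lists of cell types are given beside the 9 genes. In miR29Nestin 7 of 15 astrocyte markers rose and 1 fell, with a median log2 difference of 0.16. Their summed level was 100085 to 106328 normalised counts against 91266 to 93511, 1.12 times as high on average, beside 1.33 for Apoe, 1.29 for Clu, 1.17 for Cst3 and 0.300 for Serpina3n. The connexins Gjb6 and Gja1 rose 1.73-fold and 1.32-fold (limma adjusted p = 1.19e-04 and 0.00135), the glutamate transporter Slc1a2 rose 1.12-fold (0.0266), and its relative Slc1a3 fell 1.13-fold (0.0244). The part of the astrocyte markers in the rises of Apoe, Clu and Cst3 was not tested. In Dnmt3a-mi5 the sum of the same markers was lower, at 87150 to 93223 against 95797 to 101875 normalised counts without overlap. Such a sum is weighted to the most abundant markers. Their median log2 difference was only −0.03, and none of the 15 passed alone. There Apoe, Clu and Cst3 overlapped between groups, as described above.

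Markers of microglia, which express Apoe, C1q and Cst3 too, showed no call in miR29Nestin among 12 tested, and their sums were 5499 to 5682 against 5691 to 6201. In Dnmt3a-mi5 1 of 11 tested markers passed, against 0.122% of all tested genes. This was Cx3cr1, the fractalkine receptor, at 487 ± 12.0 against 629 ± 22.2 (SD, n = 4 each, limma adjusted p = 0.031). The sums of the microglial list there were 4363 to 4920 against 4911 to 5286, 0.897 times as high on average, with a median log2 difference of −0.07. Markers of leptomeningeal fibroblasts, which express Vim and Cd44, had 5 rises among 11 tested in miR29Nestin, namely Col1a1, Col1a2, Igf2, Mgp and Islr. The sums of the whole list were 2188 to 2905 against 1311 to 1943, 1.53 times as high on average, beside 0.841 for Vim and 0.676 for Cd44. These sums are weighted to Igf2, the most abundant of the list, whose mean went from 585 to 1162 normalised counts. The median log2 difference of the tested markers was only 0.15. Dcn, Slc6a13, Ogn, Slc22a6, Aldh1a2 and Igfbp2 did not pass, at 0.860 (Dcn) to 1.31 (Slc6a13) times the wild-type mean. Serpinh1, described above, is also a gene of collagen-making cells. Matches of these genes to the miR-29 seed are not given here, so their rises are not read as more of these cells. Endothelial markers had no call in 10 tested, with sums of 3389 to 4020 against 3448 to 3636. Markers of cortical neurons had 5 falls among 10 tested and sums of 84296 to 87567 against 90097 to 97487. Of 8 inhibitory neuron markers 2 rose and 2 fell, with sums of 11247 to 12312 against 11449 to 12255. Of 10 oligodendrocyte markers 3 rose, Mbp, Mobp and Mal, with sums of 113635 to 127234 against 103752 to 115721, 1.10 times as high on average. Of 8 markers of their precursors 3 rose, Pdgfra, Olig1 and Neu4, with sums of 5459 to 5917 against 4674 to 5200, 1.18 times as high. Of 8 pericyte and smooth muscle markers Pdgfrb and Myh11 rose and Rgs5 fell, with sums of 2329 to 2736 against 2627 to 2909. None passed among the tested markers of striatal neurons (8), ependyma and choroid plexus (2) and blood (1). No listed marker of these cell types was at 0 in every library. The part of these cells in the differences of the 9 genes was not tested.

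**Figure D4:**
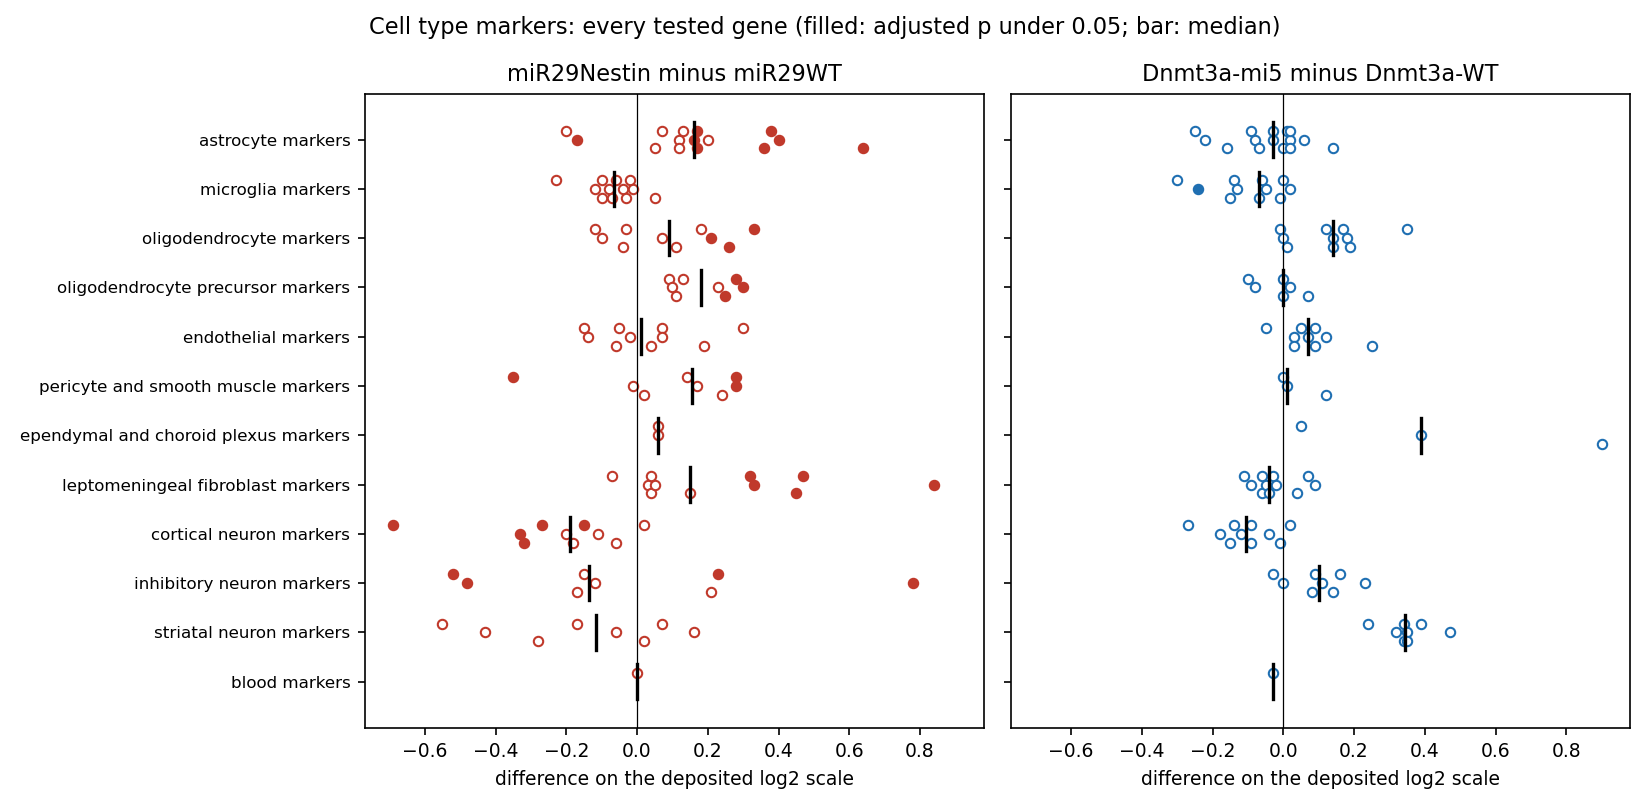
Every tested cell type marker, placed by its difference on the deposited log2 scale (mutant minus wild type) in both models, with the list median as a bar and genes that passed filled. In miR29Nestin (left) astrocyte markers have a median of 0.16, microglial markers −0.06 and cortical neuron markers −0.19, and in Dnmt3a-mi5 (right) 1 microglial marker passed.

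Variation among libraries of the same group was compared between the 9 genes after the group means were removed, over all 14 libraries. The highest correlations among the 9 were 0.63 between Vim and Stat3, 0.54 between C4b and Stat3 and 0.51 between Serpina3n and Clu, and the lowest was −0.75 between Apoe and Cst3. Serpina3n and C4b, both acute-phase genes, correlated at 0.39. The correlations among the 9 thus had both signs. Counting noise, largest for Osmr and Cd44 with their low counts, lowers such correlations. They therefore cannot show whether the 9 genes vary together within groups. Of 10610 genes tested in both tables, those most like Serpina3n in this measure were Tcf4 and Gnaq (r = 0.92 each), and those most like C4b were Slc15a4 (0.91) and Fzd4 (0.89). For Cd44 they were Nr4a2 (0.97) and Dennd2a (0.93), for Apoe Siah1a (0.95) and Sumf1 (0.90), and for Clu Wrnip1 (0.96) and Myadm (0.88). For Stat3 they were Nbeal2 (0.95) and Colec12 (0.89), for Vim Paxip1 (0.91) and Stab1 (0.90), for Osmr Asb1 (0.89) and Siah2 (0.87), and for Cst3 Sypl and 5730455P16Rik (0.92 each). These values are the highest of many over few libraries, whose preparation is shared within a table, and they describe only these libraries.

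Promoters were searched for the STAT recognition pattern TTCNNNGAA, which reads the same on both strands, in RefSeq windows of 250 bases before to 50 bases after each start (GRCm38). Windows were given for 7 of the 9 genes, 9 windows in all, and none held the pattern, against 8.3% of 32851 promoters. This says only that these letters are not in these windows.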

How the data were processed

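The authors deposited 1 table per model with values on a log2 scale from the variance-stabilising transformation of DESeq2, per the file headers and values. Per the submitters' processing notes the tools included STAR, Salmon, cutadapt and DESeq2, with builds hg19 and mm9 and no roles. Libraries were stranded and paired-end, per the labels' protocols. Here the transformation was inverted from each table's zero level (6.5861 and 7.6295) to give normalised counts. Of miR29 values under 20 reads, 82.7 to 87.0% fell within 0.05 of a whole read. Among the Dnmt3a libraries 2 sets of 4 had equal means for every gene (within 5.5e-09), so an effect had been removed and its counts are approximate. Those libraries are numbered by column order, because the columns repeat replicate names.

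Groups were compared within each table with limma 3.58.1 (R 4.3.3, empirical Bayes with trend, Benjamini-Hochberg over all tested genes), with the set as a term in the Dnmt3a table, and called at an adjusted p under 0.05. Genes were tested with a mean at least 1 above the lowest value (48.0 and 80.1 normalised counts). Scripts were tested on simulated data. P-values measure the spread between these libraries. Same-numbered miR29 libraries deviated together (r = 0.335, 0.204 and 0.186), but so did miR29Nestin library 3 and miR29WT library 2 (0.178). The other unlike-numbered pairs had −0.327 to −0.055. The labels state no pairing, so it is read from these values alone. Alternatives were other scales, filters, normalisations and variance models, sex or a replicate block as a term, and each library left out.

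Named genes are the 9 genes, their near copies, the 2 genes most like each, the up to 4 called genes of each list with the smallest p, and, chosen after their values were seen, C1q genes, C3, Il6st, Socs3, Ctsb, Nes, Nr3c1 and cell type markers. The genes and lists were chosen with earlier results of these data known. Of the genes this rule names, 1 is not reported here. Transcripts came from GENCODE M21 and were searched with Biopython 1.88. Summaries used scipy 1.17.1, pandas 2.3.3 and numpy 2.4.6 under Python 3.11.15.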

Additional observations from a re-analysis of the deposited data

How the results depend on the processing

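Serpina3n, Apoe, Clu and Cst3 were called in miR29Nestin under all 16 alternatives, with log2 differences of −1.74 to −1.18, 0.37 to 0.47, 0.33 to 0.42 and 0.21 to 0.29. C4b was called under 12 of the 15 alternatives that tested it, at 0.23 to 0.45. None of the 7 tested genes was called in Dnmt3a-mi5 under any alternative. The count of all called genes was 2289 in miR29Nestin, and 1384 to 2313 with 1 library left out, lowest without miR29WT library 2. In Dnmt3a-mi5 it was 13, and 1 to 82 with 1 library left out, highest without Dnmt3a-WT library 2. Without the term for the removed effect it was 85, of which 24 were higher. Taken as log2(normalised count + 1), 10 of 33 called named genes moved by over 1.5 times in miR29Nestin, among them C4b, Spp1 and S100a10. Of the named genes' values under alternatives, 46 fell below the threshold in miR29Nestin and 3 passed it in Dnmt3a-mi5. With the replicate block 3037 genes and 5 of the 9 were called in miR29Nestin, and the block changed no call of a named gene. The Dnmt3a headers repeat 2 numbers in each group, so a block was made of set and header number, chosen after seeing the data. Deviations of libraries of the same block had r = −0.555 to −0.147. Because the set means are equal, deviations within a set must cancel out, which pushes such r downward. These r therefore cannot show whether the blocks were paired. This replicate block gave 2 called genes and none of the 9. At 3 or 4 libraries a group, the smallest rises and the genes under the filter, Osmr and Cd44, are limited by depth and spread.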

Other observations

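Glucocorticoid response genes include the A1-list gene Fkbp5 and the metallothioneins of astrocytes. Of 17 listed genes all were tested in miR29Nestin, where 10 rose, 1 fell and 6 did not pass, beside 9.02% and 10.03% of all tested genes that rose and fell. The list had a median log2 difference of 0.40 against −0.005 for all tested genes. Tsc22d3, the glucocorticoid-induced leucine zipper, had 2010, 1933 and 2084 normalised counts in miR29Nestin and 821, 868 and 1002 in miR29WT, a 2.24-fold rise (log2 difference 1.03, SE 0.07, limma adjusted p = 6.07e-06). The metal-binding proteins Mt1 and Mt2 rose 1.76-fold and 1.72-fold (limma adjusted p = 8.65e-05 and 4.28e-04), and the cell cycle inhibitor Cdkn1a rose 1.81-fold (6.58e-04). The receptor gene Nr3c1 fell 1.26-fold, from 1196 ± 53.0 to 949 ± 61.6 (SD, n = 3 each, limma adjusted p = 0.00724).

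In Dnmt3a-mi5 none of 15 tested genes of that list passed, with a median log2 difference of 0.18 against 0.002 for all tested genes. Tsc22d3 had 891, 834, 807 and 890 normalised counts in Dnmt3a-mi5 and 538, 701, 694 and 565 in Dnmt3a-WT. All mutant libraries lay above all wild types (log2 difference 0.32, SE 0.06, limma adjusted p = 0.114), and the gene passed without Dnmt3a-WT library 2 (0.0185) and without the term for the removed effect (0.0473). Fkbp5 had 527 ± 47.7 against 387 ± 60.3 (SD, n = 4 each, limma adjusted p = 0.144, and 0.0419 without Dnmt3a-WT library 2).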
